A study of Arabidopsis thaliana with 14 samples.

Results

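The comparison described here set roots of Arabidopsis plants carrying a mutant nip5;1 allele against roots with an intact NIP5;1 gene, both under sufficient boron. Its members are the 7 arrays, of 14 in the series, whose labels give 100 µM boric acid for the last 2 days. There were 4 genotypes with mutant nip5;1, namely the single mutant and the double mutants with bor1, bor2 or nip6;1. The 3 genotypes with intact NIP5;1 were the bor1 single mutant, the bor2 single mutant and wild type. The first 4 are called channel mutants below, the single channel mutant and the bor1, bor2 and nip6;1 double mutants, and the other 3 intact genotypes. All were in the Col-0 ecotype, grew for 10 days at 100 µM boron and were 12 days old when total RNA was taken from whole roots. The labels name the alleles nip5;1-1, bor1-1 and bor2-1 in their phenotype notes, give no allele for nip6;1, and describe stunted growth of the channel mutants under limiting boron. The allele of each double mutant's second gene is not stated. The other 7 arrays hold the same genotypes after 2 days at 0.3 µM boron and serve here as a second look at the same lines.

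Boron enters roots as boric acid and cross-links the pectic polysaccharide rhamnogalacturonan II in the cell wall. NIP5;1 is a boric acid channel in the plasma membrane of root cells that is needed for uptake when boron is scarce, while with ample boron the uncharged acid also crosses membranes by diffusion. BOR1 exports borate towards the xylem, BOR2 exports borate in support of wall cross-linking in roots, and NIP6;1 is a related channel that acts in the shoot. The comparison asks which root transcripts depend on the channel when boron is not limiting, and how far the genotypes differ from each other in that state.

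Each genotype had 1 array at 100 µM, so genotypes were the replicates of a class, and p-values measure the spread between genotypes. Array medians ran from 195 to 202 signal units, on the linear intensity scale of the deposited table. Nothing in the labels says that a genotype was sampled more than once. The annotation used here assigns no probe set to NIP5;1, to NIP6;1 or to the 2 exporters BOR1 and BOR2, which leaves the mutated genes unchecked. Of the root markers drawn up as defining, EXPA18, an expansin of root hairs, was the one with a named probe set and had a signal between 923 and 1234 on the 7 arrays. Of the shoot markers, LHCB4.1, a light-harvesting protein, was measured on every array at 905 to 1498 and RCA, rubisco activase, at 389 to 785, both highest in the nip6;1 double mutant. In a bulk sample a change in the share of a cell type and a change of RNA per cell cannot be told apart.

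No transcript separated the channel mutants from the intact genotypes past the threshold. Of 13648 tested probe sets, 0 had a limma adjusted p under 0.05 (0.0% called, smallest adjusted p 1.0), and 364 (2.67%) had an unadjusted p under 0.05, of which 134 (0.982%) were higher and 230 (1.69%) lower in channel mutants. The 95% interval of the class difference lay within 2-fold in either direction for 13451 probe sets (98.6%) and within 1.5-fold for 88.4%. For 197 probe sets, 103 of them with a gene name, the interval reached 2-fold, so a difference of that size was not resolved there. A fitted difference of 2-fold or more was found for 12 probe sets, 1 higher and 11 lower. The median standard error (SE) of a difference was 0.13 on the log2 scale. The classes did not overlap for 540 probe sets (3.96%), 270 in each direction (1.98% each).

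Class membership held 13.9% of the variance between arrays at 100 µM over all tested probe sets, where it takes up 1 of 6 degrees of freedom (16.7%). At 0.3 µM the same split of the same genotypes held 26.9%.

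The named genes nearest to a class difference are given as values, since none passed. Among those higher in channel mutants, AT5G15610 had the smallest p. Its signal was 2007 in the single channel mutant, 2039 in the bor1 double mutant, 2363 in the bor2 double mutant and 1889 in the nip6;1 double mutant, against 1150 in bor1, 1431 in bor2 and 1597 in wild type. Every channel mutant lay above every intact genotype, with a difference of 0.58 on the log2 scale (SE 0.13, unadjusted p = 0.00074 and adjusted p = 1.0 by limma). At 0.3 µM the difference of this gene was 0.08, with the classes overlapping in the signals of 1011 to 1997 in channel mutants and 1132 to 1808 in intact genotypes.

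AT5G20950, a glycosyl hydrolase, had signals of 2873, 2451, 2413 and 2486 in the channel mutants, in the same order, against 2148 in bor1, 2101 in bor2 and 1972 in wild type. The single channel mutant stood highest and the other 3 lay within a narrow band above all intact values. The difference was 0.30 at 100 µM (SE 0.09, unadjusted p = 0.0085) and 0.36 at 0.3 µM (SE 0.09, unadjusted p = 0.0031, adjusted p = 0.169). AT1G06900, a metallopeptidase of the insulinase family, showed 1133, 1177, 1306 and 1192 in channel mutants against 949, 945 and 1048 in intact genotypes in the order bor1, bor2 and wild type, which is kept below. Its difference was 0.29 at both boron levels (SE 0.09 at 100 µM, unadjusted p = 0.010 there).

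The other 5 named genes of this direction also had every channel mutant above every intact genotype. AT1G47380, of the protein phosphatase 2C family, averaged 359.9 ± 43.6 in channel mutants (SD, n = 4) and 270.2 ± 12.6 in intact genotypes (n = 3), a log2 difference of 0.41. AT1G68360, a zinc finger protein, averaged 244 ± 48.4 in channel mutants (n = 4) and 162 ± 33.3 in intact genotypes (n = 3), a log2 difference of 0.59, with its lowest channel mutant at 202 and wild type at 196. AT3G22210 (0.70), AT3G15240 (0.36) and AT5G63380, an acyl-activating enzyme related to 4-coumarate ligases (0.41), completed the set. A second probe set of AT3G15240 gave 0.09. AT3G22210 had 227 in the nip6;1 double mutant and 138 to 148 in the other channel mutants, next to 131 in wild type.

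Among the named genes lower in channel mutants, the plastid-encoded ribosomal protein gene rps4 had the smallest p. Its signal was 649.7 in the single channel mutant, 527 in the bor1 double mutant, 582 in the bor2 double mutant and 531 in the nip6;1 double mutant, against 839.7 in bor1, 993 in bor2 and 848 in wild type. The gap between the highest channel mutant and the lowest intact genotype was wider than the spread within the channel mutants. The difference was -0.64 (SE 0.11, unadjusted p = 0.00015 and adjusted p = 1.0 by limma). The plastid gene ccsA, which encodes a factor of cytochrome c assembly, followed with 372, 393, 434 and 362 against 526, 635 and 563 (-0.56, SE 0.11, unadjusted p = 0.00040).

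AT3G46280 had the largest difference of these 8 genes, -0.84 (SE 0.17, unadjusted p = 0.00044). It showed 628, 734, 947 and 564 in channel mutants against 1464, 1121 and 1216 in intact genotypes, so the bor2 double mutant lay nearest to the intact values without reaching them. Its difference at 0.3 µM was -0.55 (unadjusted p = 0.020, adjusted p = 0.348). AT2G43590, a member of the chitinase family, had 419.6, 497, 452 and 489 in channel mutants against 649.8, 931 and 657 in intact genotypes. Its difference was -0.67 at 100 µM (SE 0.14) and -1.22 at 0.3 µM (SE 0.40, unadjusted p = 0.013, adjusted p = 0.298), the same direction. The change of the difference between boron levels did not pass (-0.55, SE 0.44, limma adjusted p = 0.880). At 0.3 µM the classes overlapped, with 556 in the bor2 double mutant and 364 in bor1.

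AT5G05600, an oxygenase that inactivates jasmonate, had 286, 282, 256 and 235 in channel mutants against 395, 355 and 357 in intact genotypes (-0.48, SE 0.11). GSTU27, a glutathione transferase of the tau class, had 1582, 1254, 1261 and 1314 against 1821, 1895 and 1756 (-0.44, SE 0.10). Neither showed a class difference of that size at 0.3 µM, where the fitted values were -0.03 and 0.01. AT5G64250 (-0.44) and AT5G51220 (-0.59) were also lower on all 4 channel mutant arrays than on any intact array.

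In all, the classes did not overlap for 8 of the 8 named higher and 8 of the 8 named lower genes, which the choice by smallest p favours. On the other arrays, at 0.3 µM, 6 of the 8 higher genes and 7 of the 8 lower genes had the same sign, with 3 and 2 at an unadjusted p under 0.05. Over all tested probe sets 55.9% had the same sign at both levels, and 1495 of 13648 had an unadjusted limma p under 0.05 at 0.3 µM. Without a gene name here, 256069_at (0.52), 266229_at (0.50) and 252534_at (0.46) were the 3 with the smallest p among higher probe sets, and 250580_at (-0.41), 260783_at (-0.80) and 1 further probe set (-0.64) among lower ones.

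**Figure D1:**
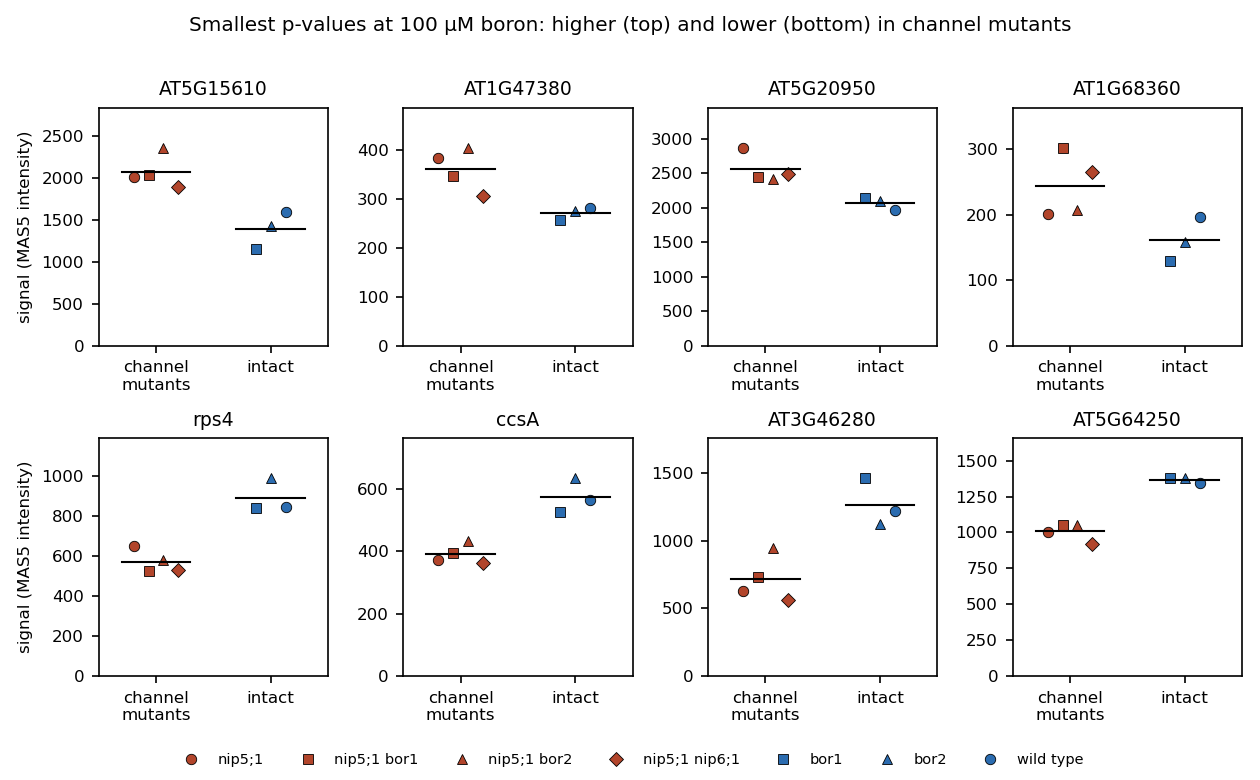
Signal (MAS5 intensity, linear axis from 0) of the 4 named genes with the smallest p in each direction on the 7 arrays at 100 µM boron. Points are single genotypes, channel mutants left and intact genotypes right, and bars are class means. The classes do not overlap in any panel, and no gene passed after adjustment over 13648 probe sets.

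The genes that did separate the classes at low boron gave no such separation at 100 µM. At 0.3 µM, 46 probe sets passed (0.337%), 36 higher and 10 lower in channel mutants, with a median absolute difference of 0.95 on the log2 scale. At 100 µM the median absolute difference of the same 46 was 0.11, beside 0.08 over all tested probe sets. None differed 2-fold, beside 12 of all 13648 tested, and 0 had classes that did not overlap, beside 3.96% of all tested. The sign was kept by 25 of 46, beside 55.9% of all tested. For 41 of 46 the 95% interval lay within 2-fold, a smaller share than the 98.6% of all tested. It reached 2-fold for the rest, among them AT5G22580 (-1.30 to 0.46) and AT5G19890 (-1.47 to 0.46). A difference of that size was not resolved there. The 0.3 µM count was 211 (1.55%) without the bor2 array at that level, which stood apart from the others there.

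Genes for wall proteins among the 46 show the contrast, and were chosen for mention after their values were seen. EXPA20, an expansin, had signals of 241, 247, 249.5 and 219.9 in channel mutants at 100 µM against 217, 243 and 291 in bor1, bor2 and wild type. At 0.3 µM it had 674, 924, 748 and 870.1 in channel mutants against 334, 299 and 229 in intact genotypes. The classes thus overlapped fully with ample boron, with a difference of -0.05 (SE 0.13, 95% interval -0.34 to 0.23), and were apart at low boron (1.49, limma adjusted p = 0.0070). The change of the class difference between boron levels was itself past the threshold (1.55, SE 0.20, adjusted p = 0.0027).

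AT3G53190, a pectin lyase-like protein, had 1355, 1180.4, 1321 and 1338 in channel mutants against 1314, 1315 and 1159.9 in intact genotypes at 100 µM (0.04, 95% interval -0.17 to 0.25), and a difference of 0.96 at 0.3 µM. AT3G15720, of the same fold family, had a difference of -0.04 at 100 µM and 1.64 at 0.3 µM, and ARA12, a subtilisin-type protease, of -0.01 and 1.10. All 3 changed their class difference with boron (adjusted p = 0.029, 0.040 and 0.0087). XTH21, a xyloglucan-modifying enzyme, was lower in channel mutants at 0.3 µM (-0.85, adjusted p = 0.031), and at 100 µM it had 283, 277, 286 and 291 in channel mutants against 324, 476 and 231 in intact genotypes (-0.21, SE 0.20). Its change with boron did not pass (adjusted p = 0.507).

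Of the 46, 23 name 1 gene, and their differences at 100 µM ran from -0.51 to 0.37, the smallest unadjusted p being 0.065. The change of the class difference with boron passed for 21 of all tested probe sets (0.154%), 18 of them among the 46 and 10 with a gene name. AT5G22580 was the named gene with the largest such change (2.91, SE 0.53, adjusted p = 0.040). It had 177, 245, 146 and 67.3 in channel mutants against 117, 268 and 225 in intact genotypes at 100 µM, and 1918, 2322, 1461 and 1810 against 382, 487 and 190.3 at 0.3 µM. AT3G53400 had 165, 184, 154 and 140.2 in channel mutants against 147, 121 and 164 in intact genotypes at 100 µM (0.16, SE 0.16). At 0.3 µM it had 3767, 3377, 3226 and 3742 in channel mutants against 1574, 1851 and 1735 in intact genotypes, all above every value at 100 µM.

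**Figure D2:**
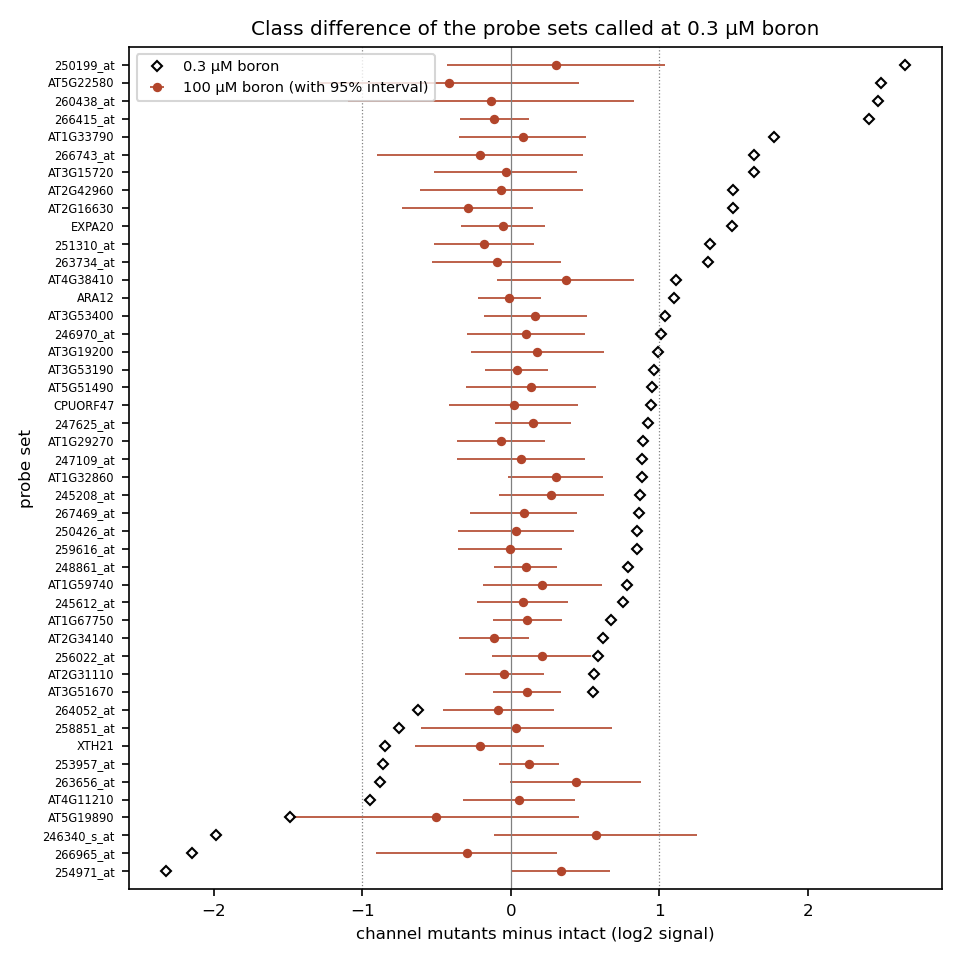
Class difference (channel mutants minus intact, log2 signal) of the 46 probe sets that passed at 0.3 µM boron, 1 per row. Filled points with bars are values and 95% intervals at 100 µM, open diamonds are values at 0.3 µM, and dotted lines mark 2-fold. The 100 µM values lie around 0 at every size of the low boron difference.

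Only 1 of the 46 had an unadjusted p under 0.05 at 100 µM, and its sign was turned. This probe set, which names no gene here, had 1261, 1175, 838 and 890 in channel mutants against 805, 757 and 875 in intact genotypes (0.34, SE 0.15, unadjusted p = 0.044, adjusted p = 1.0). At 0.3 µM it had 1303, 1141, 1655 and 789 in channel mutants against 5493, 4908 and 7624 in intact genotypes, a difference of -2.32 (adjusted p = 0.0070). At 100 µM the classes overlapped, since wild type lay above the bor2 double mutant. From 100 to 0.3 µM its class mean went from 812 to 6008 in intact genotypes and from 1041 to 1222 in channel mutants. The probe set is numbered between those of AT4G10360 and AT4G10440, genes beside the NIP5;1 locus. Whether it measures NIP5;1 itself was not tested.

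Of 44 gene lists, 14 had no tested member and 12 had at least 5, and 0 tested members of the others passed the adjusted threshold. AT3G06450, a member of the BOR family of borate exporters, was the only tested gene of boron transport. It had 549.7, 470.0, 506 and 477 in channel mutants against 516, 596 and 548 in intact genotypes (-0.14, SE 0.10, unadjusted p = 0.189). AT5G25430, another family member, gave a weak signal of 6.7 to 43.7 and was not tested.

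Lists of genes chosen because they rose or fell at low boron on arrays of this series had median class differences near 0 at 100 µM. For 16 tested risers it was 0.00, against 1.05 at 0.3 µM, with 8 higher and 8 lower. PRX52, a class III peroxidase with a role in lignin formation, had 19.9, 53.9, 78 and 28.4 in channel mutants against 12.4, 15.3 and 20.3 in intact genotypes, with all intact values at or near the floor of 20 signal units below which values were set equal (0.97, SE 0.50, unadjusted p = 0.079). For 21 tested fallers the median was 0.05 at 100 µM and -0.48 at 0.3 µM, with a range from -0.64 to 0.84 at 100 µM. At 100 µM, 1 faller was higher and 2 were lower at an unadjusted limma p under 0.05 (14.3%, against 2.67% of all tested). The classes did not overlap for 1 faller (4.76%, against 3.96% of all tested). Among these AT2G43890, a polygalacturonase-like protein, had 653, 364, 371 and 674.5 in channel mutants against 543, 187 and 206 in intact genotypes (0.84, SE 0.35, unadjusted p = 0.037), with bor1 inside the range of the channel mutants.

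Most tested members of wall-loosening families had slightly lower values in channel mutants, with 0 under an unadjusted p of 0.05, beside 2.67% of all tested. Of 11 tested expansins, which loosen walls during cell growth, 3 were higher and 8 lower (72.7%, against 46.7% of all tested) with a median of -0.05 and a range from -0.13 to 0.16. Of 5 xyloglucan endotransglucosylases, which cut and rejoin xyloglucan, 1 was higher and 4 lower (80.0%), with a median of -0.07. Tubulins, 9 of which were tested as a list added after the values were seen, lay between -0.05 and 0.09. Of these 7 were higher and 2 lower (22.2%), with a median of 0.04. The medians stand beside 0.01 over all tested probe sets.

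Lists of conjugating enzymes, added after the values were seen, had more members lower than higher in channel mutants, by small amounts. The median difference was -0.03 for glutathione transferases and -0.07 for UDP-glycosyltransferases (-0.01 without the filter on dim probe sets), beside 0.01 over all tested probe sets. Of 11 tested glutathione transferases, which conjugate glutathione to reactive compounds, 8 were lower (72.7%, against 46.7% of all tested), and 2 had an unadjusted p under 0.05 (18.2%, against 2.67% of all tested). These were GSTU27 and GSTU22 (893, 914, 679 and 795 in channel mutants against 1037, 1257 and 914 in intact genotypes, a difference of -0.38), both lower in channel mutants. GSTU27 is also one of the named lower genes of smallest p, so the choice of this list raises the share. Of 28 tested UDP-glycosyltransferases, 19 were lower (67.9%), and 3 had an unadjusted p under 0.05 (10.7%), all lower. IAGLU, which attaches glucose to the auxin indole-3-acetic acid, had 125, 126, 104 and 110.3 in channel mutants against 156, 187 and 194 in intact genotypes (-0.62, SE 0.15, unadjusted p = 0.0018). LBD16, a transcription factor of lateral root initiation, had 145, 143, 146 and 197 against 189, 206 and 209 (-0.37, unadjusted p = 0.033), with the nip6;1 double mutant above bor1.

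The tested plastid-encoded transcripts were lower in channel mutants more often than all tested probe sets, without any passing. Of 34 tested, 28 were lower (82.4%, against 46.7% of all tested), 10 were lower and 0 higher at an unadjusted p under 0.05 (29.4%, against 2.67% of all tested), and 7 had classes that did not overlap (20.6%, against 3.96% of all tested). The median difference was -0.25, against 0.01 over all tested probe sets, and was -0.17 at 0.3 µM. With sufficient boron and without the filter on dim probe sets, the median over the 69 measured members was nearer to that of all probe sets, at -0.09. These transcripts come from 1 genome and can move together, so their number is not a number of independent results. With 0 of 34 past the adjusted threshold, the list is described by these counts only.

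Ribosomal protein genes of the plastid had 9 of 10 members lower (median -0.27). Besides rps4, rpl14 of the large subunit had 311, 186, 252 and 177 in channel mutants against 342, 444.5 and 383 in intact genotypes (-0.78, SE 0.19, unadjusted p = 0.0019), and rpl16 had 149.7, 147, 193 and 149 against 183, 375 and 206 (-0.61, SE 0.23). For rpl16 the classes overlapped, since the bor2 double mutant lay above bor1. Of 13 photosystem and cytochrome genes 11 were lower (median -0.21), among them psbZ, a small protein of photosystem II, at 454, 429.6, 273 and 315 against 501, 732 and 505 (-0.66, SE 0.20).

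The largest plastid difference was that of rpoC1, a subunit of the plastid-encoded RNA polymerase. It had 135, 98.4, 145 and 164 in channel mutants against 310.2, 404 and 176 in intact genotypes (-1.07, SE 0.26, unadjusted p = 0.0019). Wild type was the lowest intact genotype here, close above the nip6;1 double mutant. The large subunit of rubisco, rbcL, had 220.5, 121, 180.2 and 208 against 218, 310.5 and 299.8 (-0.62, SE 0.21), and bor1 lay within the channel mutants. The 3 genes of the NADH dehydrogenase-like complex were spread around 0 (median 0.00).

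Per array, the median signal of the 34 plastid transcripts was 746 in the single channel mutant, 805 in the bor1 double mutant, 596 in the bor2 double mutant and 692 in the nip6;1 double mutant, against 836 in bor1, 947 in bor2 and 808 in wild type. The lowest intact value, in wild type, lay just above the highest channel mutant value, in the bor1 double mutant. By each transcript's deviation from the other 6 arrays the classes overlapped, with medians of 0.04, -0.06, -0.27 and -0.17 in channel mutants against 0.17, 0.31 and -0.02 in intact genotypes, so the single channel mutant lay above wild type. The means were 710.0 ± 88.7 (SD, n = 4) in channel mutants and 864 ± 73.6 (n = 3) in intact genotypes. The median difference was -0.15 without bor2 and -0.15 without the bor2 double mutant, the values nearest 0 when single arrays were left out, an alternative chosen after seeing the data.

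The GAPDH control probe sets give a 3′ over 5′ signal ratio that follows RNA integrity, and it was 1.50, 1.42, 1.36 and 1.15 in channel mutants against 1.60 in bor1, 1.31 in bor2 and 1.77 in wild type. Its class means of 1.36 ± 0.152 (n = 4) and 1.56 ± 0.232 (n = 3) did not differ past the threshold (exact two-sided permutation p = 0.257 over 35 splits, adjusted p = 0.771 over 3 values, smallest possible p 0.0286). With this ratio as a covariate the median plastid difference was -0.28. The shoot markers differed by 0.19 for LHCB4.1 and 0.13 for RCA. Their median deviation was 0.72 in the nip6;1 double mutant, and 0.12, -0.07 and -0.24 in the single, bor1 and bor2 double mutants against 0.12, -0.08 and -0.17 in intact genotypes. The part of RNA from other tissue in the plastid values was not tested.

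**Figure D3:**
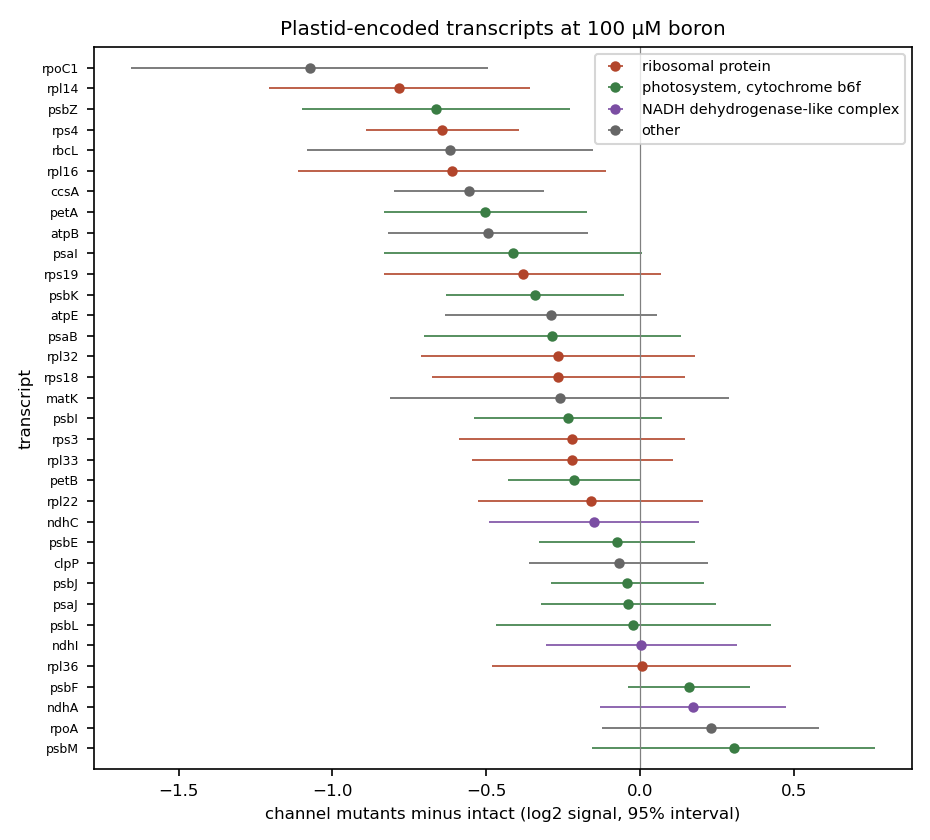
Class difference (channel mutants minus intact, log2 signal) of the 34 tested plastid-encoded transcripts at 100 µM boron with 95% intervals, coloured by the kind of protein encoded. Of these, 28 lie below 0, led by rpoC1 at -1.07.

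Most transcripts were close to each other across the 7 genotypes. The median SD over the 7 arrays was 0.16 on the log2 scale, and the median ratio of highest to lowest array was 1.37-fold. The range reached 2-fold for 769 probe sets (5.63%) and 4-fold for 63. These values hold biological and technical differences between arrays together, since no genotype was repeated at this boron level.

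Pairs of arrays were as far apart within a class as between classes. The SD of log2 ratios averaged 0.297 over 6 pairs of channel mutants (0.254 to 0.325), 0.322 over 3 pairs of intact genotypes (0.271 to 0.354) and 0.299 over 12 pairs across the classes (0.244 to 0.368). The closest pair of all was a pair across the classes, the single channel mutant and wild type at 0.244. The farthest was the nip6;1 double mutant and bor2 at 0.368. The mean distance of an array to the other 6 was 0.298 ± 0.0219 in channel mutants (SD, n = 4) and 0.307 ± 0.0265 in intact genotypes (n = 3; exact two-sided permutation p = 0.657, adjusted p = 0.943 over 3 values).

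Single arrays differed in how many probe sets stood at least 2-fold from the median of the other 6. The nip6;1 double mutant had 45 higher and 55 lower (0.733%) and the bor2 double mutant 18 and 49 (0.491%). The bor1 double mutant had 16 and 6 (0.161%) and the single channel mutant 5 and 11 (0.117%). Among intact genotypes bor2 had 43 and 57 (0.733%), bor1 26 and 3 (0.212%) and wild type 18 and 13 (0.227%). The single channel mutant was thus the array with the fewest. In all, 249 probe sets (1.82%) did so on at least 1 array.

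**Figure D4:**
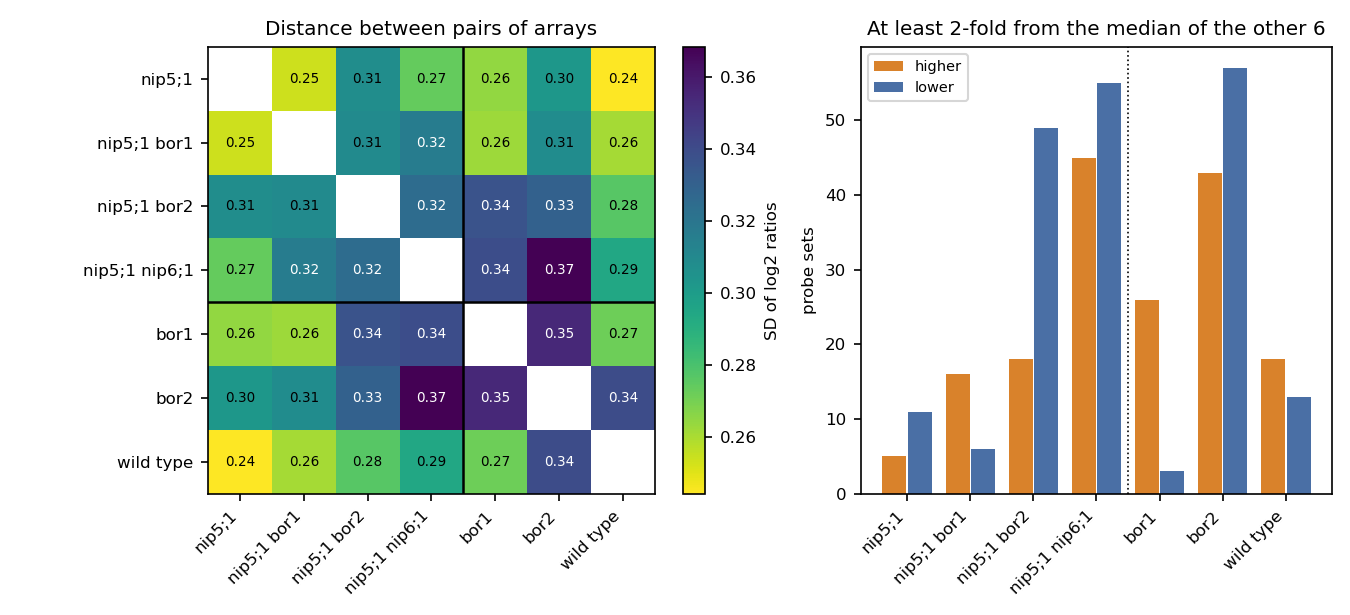
Left, SD of log2 ratios over 13648 probe sets for each pair of arrays at 100 µM boron, with black lines between channel mutants and intact genotypes. Right, number of probe sets at least 2-fold higher or lower on an array than the median of the other 6. The single channel mutant and wild type form the closest pair (0.244), and the nip6;1 double mutant and bor2 have the most deviating probe sets (100 each).

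The deviations of 2 genotypes were found again on their own arrays at 0.3 µM. Of the 100 deviating probe sets of the nip6;1 double mutant, 86 had the same sign on its low boron array (86.0%, against 55.6% of all tested), and 23 were again at least 2-fold off. Of the 100 of bor2, 80 had the same sign (80.0%, against 58.4%) and 38 were again 2-fold off. For the others the same-sign count was 39 of 67 in the bor2 double mutant (58.2%, against 48.3% of all tested). It was 9 of 22 in the bor1 double mutant (40.9%, against 43.8%) and 6 of 16 in the single channel mutant (37.5%, against 55.4%). In bor1 it was 11 of 29 (37.9%, against 55.9%) and in wild type 10 of 31 (32.3%, against 55.9%). The bor2 array at 0.3 µM deviates broadly itself, with 398 probe sets at least 2-fold off.

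In the nip6;1 double mutant, 8 named genes were 2-fold off in the same direction at both levels. AT5G19890, a class III peroxidase, had 274 there and 699.9 to 1451 on the other 6 arrays at 100 µM, and 349.6 there and 551 to 1773 on the others at 0.3 µM. XTH26, a xyloglucan-modifying enzyme of root hairs, had 91.2 there and 156 to 217 on the others at 100 µM, and 91.1 against 247 to 419.9 at 0.3 µM. Both were thus lowest on this genotype's arrays at both boron levels. AT4G39675 and AT3G18450 were low there too.

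Higher in the nip6;1 double mutant were PSAE-1, a nuclear-encoded subunit of photosystem I, with 685 there and 267 to 397 on the other arrays at 100 µM, and STZ, a zinc finger repressor of the stress response, with 1087 there and 222 to 841 on the others. At 0.3 µM both were exceeded by the bor2 array, with 490.4 for PSAE-1 in the nip6;1 double mutant and 809.8 in bor2. LHCB4.1 and RCA were also highest in the nip6;1 double mutant at 100 µM, at 1498 and 785, and the GAPDH ratio was lowest there. Their part in this array's deviations was not tested.

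In bor2, 14 named genes were 2-fold off the same way at both levels. The carboxypeptidase-like scpl31 had 616 in bor2 and 143 to 328 on the other arrays at 100 µM, and 442 against 93.2 to 180 at 0.3 µM. AT2G41380, a methyltransferase-like protein, had 490.3 in bor2 against 94.3 to 184 at 100 µM and 560.1 against 108 to 231 at 0.3 µM. AT1G33055, a gene of the low-oxygen core set, had 388 in bor2 against 911 to 1733 at 100 µM and 181 against 852 to 1335 at 0.3 µM. Each of the 3 lay outside the range of the other 6 genotypes at both levels.

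SWEET11, a sucrose transporter, was low in bor2 at 100 µM with 301 against 1198 to 1891 on the other arrays. AT3G55790 was low in bor2 at 100 µM (41.1, against 228 to 505) and high there at 0.3 µM, where its deviation was 4.03 on the log2 scale, so its sign turned. UGT84A1, which glucosylates hydroxycinnamic acids, had 233 in bor2 and 59.2 to 93 on the others at 100 µM.

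The genes with the highest SD at 100 µM included members of the low-oxygen response, whose values overlapped between the classes. AT5G10040, of the set of genes induced by low oxygen across cell types, had 23, 182.5, 954 and 75.4 in channel mutants against 164 in bor1, 19.8 in bor2 and 1024 in wild type (SD 2.29). The bor2 double mutant and wild type were high, the single channel mutant and bor2 low, the last of these at the floor. AT2G17850 of the same set had the same pairs of genotypes at its ends, with 612 in the bor2 double mutant and 541 in wild type against 27.9 in the single channel mutant and 32.7 in bor2. AT4G10270 had 582.5 in the bor2 double mutant and 388 in wild type against 73.9 to 189 on the other arrays.

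Over the 20 tested members of a low-oxygen list, added after the values were seen, the median SD was 0.46, against 0.16 over all tested probe sets. The median deviation from the other arrays was 0.54 in the bor2 double mutant and 0.43 in wild type, and -0.37 in the single channel mutant and -0.42 in bor2. The class difference of the list had a median of 0.04, with 12 higher and 8 lower. This list holds genes already seen among those of highest SD, which raises its median SD. A hypoxia list drawn up before the values were seen had 2 tested members, with a median SD of 0.23. Their median deviation was 0.28 in the bor2 double mutant, 0.24 in wild type, -0.14 in the single channel mutant and 0.07 in bor2. At 0.3 µM AT5G10040 had 23.0 in the bor2 double mutant and 16.3 in wild type, near or under the floor, and at most 24.3 on any array.

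**Figure D5:**
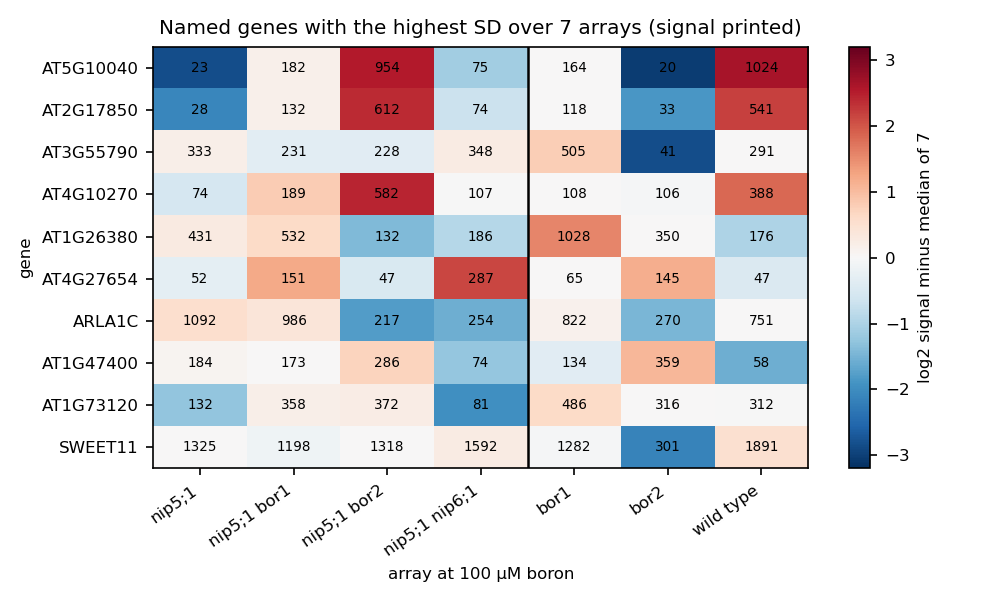
The 10 named genes with the highest SD over the 7 arrays at 100 µM boron, with the signal printed in each cell and the colour giving log2 signal minus the gene's median. Channel mutants are left of the black line. AT5G10040, AT2G17850 and AT4G10270 are high in the bor2 double mutant and wild type and low in the single channel mutant.

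Other variable genes split the genotypes in their own ways. AT1G26380, an oxidase of the berberine bridge family linked to defence, had 431, 532, 132 and 186 in channel mutants against 1028 in bor1, 350.4 in bor2 and 176 in wild type, and the neighbouring AT1G26390 had 658 in bor1 against 128 to 332 on the others. AT4G27654 had 52.4, 151, 46.8 and 287 in channel mutants against 65.1, 145 and 47.4, and AT4G27652 and STZ were high on the same 3 arrays, the nip6;1 and bor1 double mutants and bor2. AT1G47400, which encodes a peptide of the iron deficiency response, had 184, 173, 286 and 73.6 against 134, 359 and 58.5. ARLA1C, a small GTPase of the ARF-like family, was at 217 to 270.3 in the bor2 and nip6;1 double mutants and bor2 and at 751 to 1092 in the other 4 genotypes.

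Few probe sets deviated in both genotypes that share a bor1 or a bor2 mutation. In all, 1 probe set for bor1 and 1 for bor2 were 2-fold off in the same direction in both carriers at both boron levels. The probe set 263319_at had 5.7 in the bor1 double mutant and 172 in bor1, against 401 to 531 in the other 5 genotypes. The probe set 251254_at had 71.4 in the bor2 double mutant and 63.5 in bor2, against 478 to 557 in the others. Neither names a gene in the annotation used, and whether they measure BOR1 and BOR2 themselves was not tested.

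Genes beside the NIP5;1 locus on chromosome 4, which all channel mutants could share with the mutant allele, did not differ past any threshold. Of the 20 genes on each side in the order of the RefSeq table, 40 in all, 18 had a named probe set and 9 were tested. Their differences ran from -0.05 to 0.18, with a smallest unadjusted p of 0.224.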

How the data were processed

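Total RNA from whole roots of 7 Arabidopsis genotypes, each at 100 and 0.3 µM boron, was hybridised to 1-colour ATH1 arrays, 1 array per genotype and boron level. The authors deposited linear signal intensity made with MAS5, per the submitters' processing notes; its version was not given in the sources used here. All deposited arrays share a trimmed mean of 500.04, and scaling to it multiplied them by factors of only 0.999997 to 1.000003. For 22746 probe sets (64 control probe sets left out), values under 20, the 20th percentile, were set to 20 and log2 taken. The upper 60% by mean over 14 arrays, 13648 probe sets, were tested.

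The class difference was fitted on the 7 arrays at 100 µM with limma 3.58.1 (lmFit, eBayes with an intensity trend, two-sided, Benjamini-Hochberg over all tested probe sets, in R 4.3.3). The change of the class difference with boron was fitted on 14 arrays with genotype as a random block (duplicateCorrelation, consensus correlation 0.105). Single values were compared by exact permutation over arrays (scipy 1.17.1). The code was tested on simulated data. The number of arrays limits the precision.

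Genes were named through the platform annotation and RefSeq's TAIR10.1 table: 13513 probe sets name 1 gene (13436 found in the table), 503 several and 8730 are not listed. Since none passed the threshold, the text names in each direction the 8 named genes and 3 other probe sets of smallest p, and for variation the 10 named genes of highest SD and named genes that deviate most on an array. Genes outside this rule are members of lists, genes called at 0.3 µM, or genes that deviated at both boron levels, and were chosen after their values were seen. Members and lists were chosen with earlier results of these data known. Alternatives changed normalization, filter, floor, variance prior, model terms and the arrays left in.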

Additional observations from a re-analysis of the deposited data

Results flagged for a closer look

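In groups of 4 arrays, the highest or lowest value was set against Dixon's critical value of 0.829. Of 86 probe sets tested in the channel mutants, 5 passed, where chance gives about 1 in 20. AT5G20950 was highest in the single channel mutant, at 11.49 on the log2 signal scale, with the other 3 channel mutants at 11.24 to 11.28. AT3G22210 was highest in the nip6;1 double mutant, at 7.83, with the others at 7.11 to 7.21. AT1G59740 was also highest in the nip6;1 double mutant, at 8.39, with the next value at 8.01. The plastid gene rpl16 was highest in the bor2 double mutant, at 7.59, with the next value at 7.23. A probe set that names no gene here and was among those of smallest p was lowest in the bor1 double mutant, at 8.89, with the next value at 9.11.

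For 12 probe sets the class difference at 0.3 µM minus that at 100 µM passed the limma test of that change, among those named or listed. The change was 1.55 for the expansin EXPA20, 1.11 for the protease ARA12, and 0.92 for AT3G53190 and 1.67 for AT3G15720, both pectin lyase-like. It was 2.91 for AT5G22580, 1.69 for AT1G33790, 1.78 for AT2G16630, 0.96 for AT1G29270, 0.87 for AT3G53400 and 0.73 for AT2G34140. For 2 probe sets without a gene name here it was 2.61 and -2.66, the second being the one with an unadjusted p under 0.05 at 100 µM. Whether that second probe set measures NIP5;1 itself was not tested.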

How the results depend on the processing

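All 19 alternatives of the class difference at 100 µM gave 0 probe sets past the adjusted threshold, with the smallest adjusted p, 0.454, without the filter on dim probe sets. The number with an unadjusted p under 0.05, 364, was 785 without that filter, 225 with the upper 40% of probe sets and 275 to 659 when single arrays were left out, the highest without bor2. For the 22 probe sets given for their smallest p, with or without a gene name, 412 of 412 alternative values kept their direction. Of these values 0 passed (smallest adjusted p 0.470, without wild type). The kept direction is no test of these probe sets. They were chosen by smallest p, nearly all with classes that did not overlap, which leaves little room for a change of direction. At 0.3 µM the count of 46 was 211 without the bor2 array, an alternative chosen after seeing the data. The count of probe sets at least 2-fold off on at least 1 array, 249, was 864 without the filter, where fewer dim probe sets are left out. The counts of single arrays moved in 10 cases, to between 77 and 219 without the filter and to 8, 14 and 43 in the single, bor1 and bor2 double mutants with the floor at the 40th percentile. The other 38 main and 449 further values moved by less than 1.5 times or kept their direction and their side of the threshold. Genotypes can be matched by their second mutation, and that fit, with the second mutation as a block and 2 residual degrees of freedom, gave 0 probe sets past the adjusted threshold and 366 with an unadjusted p under 0.05. The fit with terms for bor1, bor2 and nip6;1 estimates the same quantity. Leaving out arrays was not run for the permutation values, where 3 against 3 or 4 against 2 arrays cannot reach 0.05. No paired analysis was possible because every array carries replicate number 1, so that these numbers pair no samples, and the match by second mutation is the nearest to one. The number of arrays, 4 and 3 a class, limits what could be called, with a median SE of 0.13 on the log2 scale.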
